A study of Rattus norvegicus with 11 samples.

Results

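The genes described here were 6 genes that are enriched in the striatum, the dopamine-innervated nucleus beneath the frontal cortex. They were chosen by their Ensembl identifiers: Drd1 (ENSRNOG00000023688), Drd2 (ENSRNOG00000008428), Adora2a (ENSRNOG00000001302), Ppp1r1b (ENSRNOG00000028404), Rgs9 (ENSRNOG00000003800) and Scn4b (ENSRNOG00000026679). All 6 were present among the 15607 genes of the DESeq2-normalized table. Rgs9 and Scn4b were also among the genes that the study itself selected on these libraries for measurement by PCR, so their values here are not independent evidence of their direction. The paper reports that both were higher in females by PCR on RNA of the same samples. It also reports a sex bias of Rgs9 protein in a western blot of the same samples. The libraries came from punches of the medial prefrontal cortex (mPFC), which in this study held infralimbic, prelimbic and cingulate cortex, of Sprague-Dawley rats aged 2 to 3 months. The groups were 4 males, 3 females in proestrus, the stage of high ovarian hormone levels, and 4 females in diestrus, a stage of low levels. The labels named neither a drug nor a genetic modification for any group. The study's methods describe the libraries of a group as biological replicates. They also state that males were killed on the days of the females. Diestrus tissue was taken early on the first diestrus day and proestrus tissue in the early afternoon, with no clock hours given. Stage and a possible difference in the hour of collection cannot be told apart. Each library held between 15.9 and 24.6 M reads on genes, and the groups overlapped in depth.

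Dopamine acts through D1-type receptors, which raise cAMP through stimulatory G proteins, and D2-type receptors, which lower it. In the striatum these receptors sit largely on separate projection neurons, the D1 receptor on the direct pathway and the D2 receptor, together with the adenosine receptor encoded by Adora2a, on the indirect pathway. In the mPFC, D1 and D2 receptors are found on pyramidal neurons and interneurons and take part in working memory. DARPP-32, the product of Ppp1r1b, inhibits protein phosphatase 1 once protein kinase A has phosphorylated it, and both receptor systems converge on it. Rgs9 speeds the shutdown of G proteins that follow D2-type receptors, and Scn4b is an auxiliary subunit of voltage-gated sodium channels.

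The question of the comparisons was whether these genes differed between the groups, and whether they varied together from library to library, as genes of a single admixed tissue would. The normalized count is the number of reads on a gene divided by the size factor of its library, and is not scaled to the length of a gene, so that the levels of different genes are not ranked here and a ratio of 2 genes is read only for its change between libraries. Fold changes are log2 differences of the normalized count plus 1, estimated with limma over all genes of the table, and a gene was called where its Benjamini-Hochberg adjusted p-value was below 0.05. In bulk tissue, fewer cells of a type and less RNA per cell cannot be told apart.

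Promoter sequences were read from RefSeq, assembly GRCr8, which is not the assembly to which the reads were mapped. They span 250 bases before to 50 bases after the annotated start and are given 5′ to 3′ on the strand of the gene. The annotated start of Scn4b begins with ATG, the letters of a start codon. The bases before it may therefore be transcribed leader and not promoter, which was not tested. The windows of Rgs9 and Scn4b are shown because these genes had the largest differences between the sexes, and that of Drd1 because it had the largest difference between the female stages. Capitals mark the GC box, GGGCGG on either strand, the core letters bound by Sp-family factors. Rgs9 lies at chr10:94770338-94770637 on the minus strand, Scn4b at chr8:54343623-54343922 on the plus strand and Drd1 at chr17:10546354-10546653 on the plus strand.
Rgs9: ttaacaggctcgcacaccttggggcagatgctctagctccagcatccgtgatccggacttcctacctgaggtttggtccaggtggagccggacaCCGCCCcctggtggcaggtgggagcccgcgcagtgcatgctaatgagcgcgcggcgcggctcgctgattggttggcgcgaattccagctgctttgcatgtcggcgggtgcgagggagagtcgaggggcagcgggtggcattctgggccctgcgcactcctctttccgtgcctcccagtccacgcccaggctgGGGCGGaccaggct
Scn4b: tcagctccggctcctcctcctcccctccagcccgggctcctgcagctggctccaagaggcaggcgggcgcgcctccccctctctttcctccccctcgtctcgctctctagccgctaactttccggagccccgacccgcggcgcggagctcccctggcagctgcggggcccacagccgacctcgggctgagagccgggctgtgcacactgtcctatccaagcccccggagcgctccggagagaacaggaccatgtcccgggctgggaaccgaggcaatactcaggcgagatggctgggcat
Drd1: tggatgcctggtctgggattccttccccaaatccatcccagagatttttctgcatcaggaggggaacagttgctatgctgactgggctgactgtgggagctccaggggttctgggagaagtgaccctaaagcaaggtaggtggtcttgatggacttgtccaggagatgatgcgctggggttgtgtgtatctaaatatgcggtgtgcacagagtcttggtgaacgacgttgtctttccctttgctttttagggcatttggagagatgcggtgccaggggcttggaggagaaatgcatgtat

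The Rgs9 window held 2 GC boxes, beginning at −156 and at 37, counted from the annotated start as base 1 with no base 0. The Scn4b and Drd1 windows held 0, and the Drd2 window, not printed here, held 2, beginning at −98 and −61. A GC box was found in 33.1% of the 33469 RefSeq promoters of the same length. The EGR1 site GCGTGGGCG (0.544% of all promoters), the estrogen response element in its single-arm form AGGTCA (16.2%), the cAMP response element TGACGTCA (1.83%) and its shorter form TGACG (21.2%), which the full element contains, had 0 matches on either strand in all 4 windows. Adora2a and Ppp1r1b were not matched. The G and C content was 66.3% for Rgs9, 70.0% for Scn4b, 67.3% for Drd2 and 51.7% for Drd1, against a median of 51.7% over all promoters. The annotated start of Drd1 directly follows a run of mostly C and T that ends in AG, the form of a splice acceptor. That window may therefore lie inside the gene, which was not tested. These matches are descriptions of letters only, and those of the Scn4b and Drd1 windows may not describe a promoter.

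Drd1, the D1 dopamine receptor, was the member with the largest difference between the female stages. Its normalized counts were 211, 124 and 192 in proestrus replicates 1, 3 and 5. In diestrus replicates 2 to 5 they were 107, 97.0, 103 and 138, and in males, replicates 2 to 5, they were 103, 78.0, 104 and 129. Proestrus replicates 1 and 5 lay above every other library, while replicate 3 lay within the range of males and of diestrus. The means were 176 ± 45.3 (SD, n = 3) in proestrus, 111 ± 18.0 (SD, n = 4) in diestrus and 104 ± 20.7 (SD, n = 4) in males. The log2 difference between proestrus and diestrus was 0.63, with a standard error of 0.21 and an adjusted p of 0.105 in limma, which did not pass the threshold. DESeq2 put the same difference at an adjusted p of 0.0419. With each library left out in turn, the adjusted p in limma ran from 0.0422 without diestrus replicate 5, a fit that called 11.4% of all genes, to 0.286 without proestrus replicate 1, a fit that called 0. Against males, proestrus was higher by 0.74 with an adjusted p of 0.285 in limma. The difference between diestrus and males was 0.11, with a 95% interval from −0.30 to 0.52.

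Drd2, the D2 dopamine receptor, showed no detectable group difference. Its normalized counts were 106, 128 and 261 in proestrus, in replicates 1, 3 and 5. They were 238, 197, 156 and 113 in diestrus, and 193, 189, 109 and 169 in males, in replicates 2 to 5 of each. The lowest library of each group lay between 106 and 113 and the highest between 193 and 261, so the groups overlapped almost entirely. The means were 165 ± 83.6 (SD, n = 3), 176 ± 54.0 (SD, n = 4) and 165 ± 38.9 (SD, n = 4). The log2 difference between females and males was 0.01 with a 95% interval from −0.54 to 0.56, so that a difference of moderate size in either direction could not have been seen.

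Adora2a, the adenosine receptor of the indirect pathway, had a proestrus mean that was set by 1 library. Its normalized counts were 102, 104 and 305 in proestrus replicates 1, 3 and 5. In diestrus they were 164, 141, 180 and 153, and in males 137, 157, 99.3 and 95.8, in replicates 2 to 5 of each. Proestrus replicate 5 was far above every other library, and the other 2 proestrus libraries lay below all 4 diestrus libraries. The coefficient of variation was 68.5% in proestrus against 10.4% in diestrus, where counting error alone would give 8.60% and 7.91%. The means were 170 ± 117 (SD, n = 3) in proestrus, 159 ± 16.5 (SD, n = 4) in diestrus and 122 ± 29.7 (SD, n = 4) in males. The log2 difference between proestrus and diestrus was −0.10 with all libraries, so its sign was opposite to the order of those means. It was 0.16 without proestrus replicate 1, 0.15 without proestrus replicate 3 and −0.62 without proestrus replicate 5. The difference between proestrus and males was 0.30 with all libraries and −0.22 without proestrus replicate 5. None of these passed the threshold in limma, with adjusted p of 0.849 and 0.674 for the 2 comparisons with all libraries.

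Ppp1r1b, which encodes DARPP-32, had its highest levels in 2 diestrus libraries. Its normalized counts were 3405, 4160, 2500 and 2446 in diestrus replicates 2 to 5. They were 2578, 2211 and 2959 in proestrus replicates 1, 3 and 5, and 2730, 2364, 2077 and 1867 in males, replicates 2 to 5. Diestrus replicates 2 and 3 exceeded all other libraries, and the other 2 diestrus libraries fell between those of males. The means were 3128 ± 817 (SD, n = 4) in diestrus, 2583 ± 374 (SD, n = 3) in proestrus and 2259 ± 374 (SD, n = 4) in males. Diestrus was higher than males by 0.45 on the log2 scale, with a standard error of 0.16 and an adjusted p of 0.460 in limma, and by 0.30 without diestrus replicate 3.

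Rgs9, the regulator of G protein signaling, had the largest difference between the sexes of the 6 genes. Its normalized counts were 165, 117, 112 and 122 in males, replicates 2 to 5. They were 202, 285, 227 and 217 in diestrus replicates 2 to 5, and 272, 175 and 380 in proestrus replicates 1, 3 and 5. All 7 females lay above all 4 males, although proestrus replicate 3 and male replicate 2 were close. The means were 276 ± 103 (SD, n = 3) in proestrus, 233 ± 36.2 (SD, n = 4) in diestrus and 129 ± 24.2 (SD, n = 4) in males. Females were higher than males by 0.93 on the log2 scale, with a standard error of 0.19, a 95% interval from 0.53 to 1.33 and an adjusted p of 0.0993 in limma. The difference was 1.04 for proestrus, with an adjusted p of 0.159, and 0.85 for diestrus, with an adjusted p of 0.208. DESeq2 put the 3 comparisons at adjusted p of 0.0014, 0.0019 and 0.0243. The difference between proestrus and diestrus was 0.19, with a 95% interval from −0.29 to 0.66, and it was −0.08 without proestrus replicate 5.

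Scn4b, the sodium channel subunit, was higher in diestrus than in males without overlap. Its normalized counts were 1617, 1996, 1761 and 1562 in diestrus replicates 2 to 5 and 1334, 1042, 1266 and 862 in males, replicates 2 to 5. In proestrus replicates 1, 3 and 5 they were 1252, 1517 and 1713. Proestrus replicate 1 lay below 2 males, and the other 6 females lay above all males. The means were 1734 ± 194 (SD, n = 4) in diestrus, 1494 ± 231 (SD, n = 3) in proestrus and 1126 ± 216 (SD, n = 4) in males. Diestrus was higher than males by 0.64 on the log2 scale, with a standard error of 0.14, a 95% interval from 0.34 to 0.93 and an adjusted p of 0.151 in limma. Females as a whole were higher by 0.54, with an adjusted p of 0.252. DESeq2 put these 2 differences at adjusted p of 0.0069 and 0.0315. Without male replicate 5, the lowest library, the difference between diestrus and males was 0.52.

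**Figure D1:**
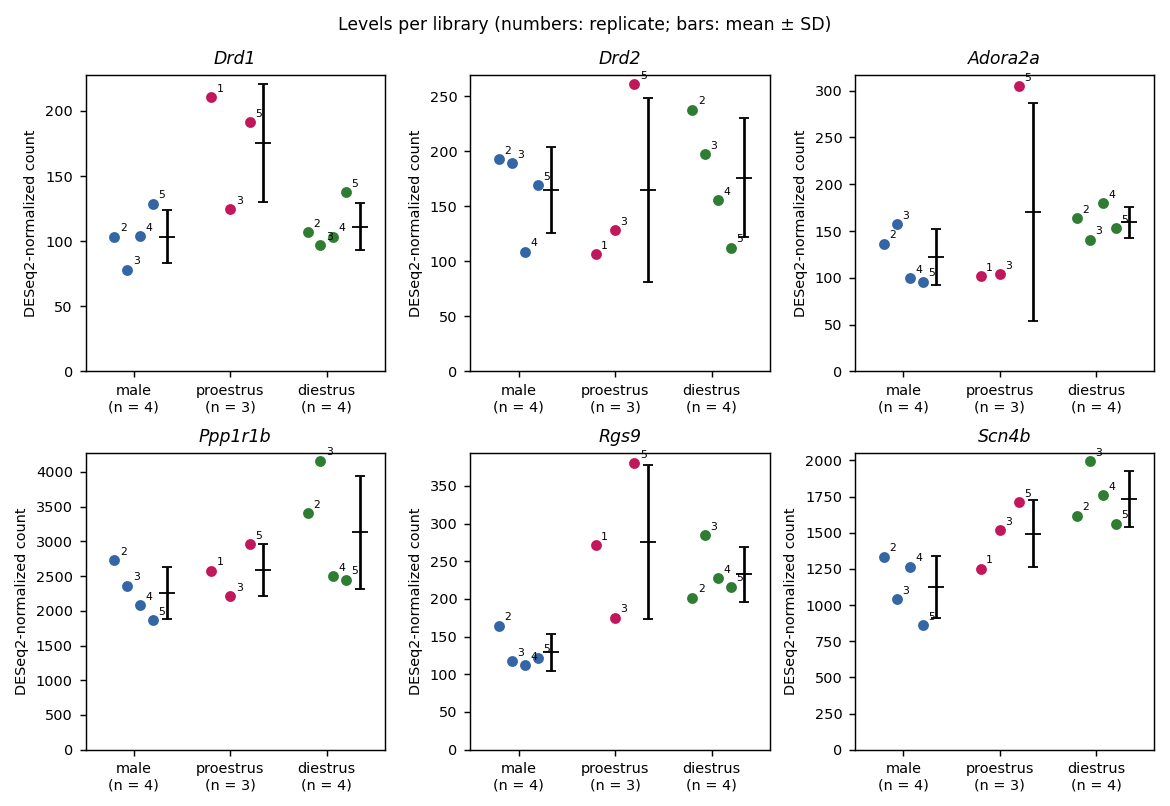
DESeq2-normalized counts of the 6 genes in each library (vertical axes, starting at 0) by group, with the replicate number beside each point and the group mean ± SD as a bar to its right. Rgs9 is the gene in which all 7 females lie above the 4 males, and the single proestrus library at 305 sets the spread of Adora2a.

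As a group, the 6 genes had mostly positive differences between females and males, without a call in limma. Between females and males, 6 of 6 log2 differences were above 0, with a median of 0.37, where 54.5% of all genes were above 0 and the median was 0.01. The sixth was Drd2 at 0.01, which was below 0 without diestrus replicate 2 or 3, male replicate 4 or proestrus replicate 5, leaving 5 of 6. Between diestrus and males, 6 of 6 were above 0 with a median of 0.43, against 52.2% of all genes, and 5 of 6 without diestrus replicate 2 or male replicate 3 or 4. Between proestrus and males, 5 of 6 were above 0 with a median of 0.36, against 51.0% of all genes. Without proestrus replicate 5, which was above the mean of the 11 libraries in 6 of 6 genes, 4 of 6 were above 0 with a median of 0.20, and without proestrus replicate 1 the median was 0.55. In a fit with the replicate number as a block, every member was above 0 in this comparison, from 0.20 for Drd2 to 1.00 for Rgs9. Between proestrus and diestrus, 2 of 6 were above 0 with a median of −0.12, against 48.3% of all genes. The sign of that median depended on single proestrus libraries: it was −0.34 with 1 of 6 above 0 without replicate 5, 0.06 with 3 of 6 without replicate 3, and 0.14 with 4 of 6 without replicate 1. It was −0.04 without diestrus replicate 2 and −0.19 without diestrus replicate 5. The signs also moved in the block fit, which kept every library. There Drd1, Drd2, Adora2a and Rgs9 were above 0 (0.46, 0.13, 0.20 and 0.15), and Ppp1r1b and Scn4b below 0 (−0.24 and −0.0016). The comparisons with males share the 4 male libraries, and the members are not replicates of each other.

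In the comparison of proestrus and diestrus, limma called 0 of 6 members, where it called 2.53% of all genes, 395 in number. That background changed with each of the 11 libraries left out, from 0 genes without proestrus replicate 1 or 3 to 1774 without diestrus replicate 5. DESeq2 called 1 of 6, Drd1, with 6.89% of all genes called, and edgeR's quasi-likelihood test called 0 with 2.70% of all genes called. In 0 of 6 members did the 2 groups not overlap, where 26.6% of all genes did not. At an unadjusted p below 0.05 in limma there was 1 member of 6, against 26.7% of all genes.

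Proestrus differed from males in 0 of 6 members by limma and 0 by edgeR, each with 0.0833% of all genes called. DESeq2 called 1, Rgs9, with 0.756% of all genes called. In 1 of 6 members, Rgs9, the 2 groups did not overlap, against 13.3% of all genes. Unadjusted p-values in limma were below 0.05 for Drd1, Rgs9 and Scn4b, 3 of 6, against 11.3% of all genes. With each library left out in turn, the adjusted p of Rgs9 in limma ran from 0.0379 without proestrus replicate 3, a fit that called 0.0513% of all genes, to 0.516 without proestrus replicate 1. No other member was called in this comparison with a library left out.

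Diestrus differed from males in 0 of 6 members by limma, with 0.128% of all genes called, and in 0 by edgeR, with 0.141%. DESeq2 called 2, Rgs9 and Scn4b, with 0.750% of all genes called. In 2 of 6 members, again Rgs9 and Scn4b, the groups did not overlap, against 3.84% of all genes. Unadjusted p-values in limma were below 0.05 for Ppp1r1b, Rgs9 and Scn4b, 3 of 6, against 9.62% of all genes.

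Females as a whole differed from males in 0 of 6 members by limma, with 0.135% of all genes called, and in 0 by edgeR, with 0.147%. DESeq2 called 2, Rgs9 and Scn4b, with 0.487% of all genes called. In 1 of 6 members, Rgs9, the sexes did not overlap, against 1.06% of all genes. Unadjusted p-values in limma were below 0.05 for Ppp1r1b, Rgs9 and Scn4b, 3 of 6, against 4.83% of all genes. Both dopamine receptors and Adora2a were not among the genes past any of these thresholds between the sexes.

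**Figure D2:**
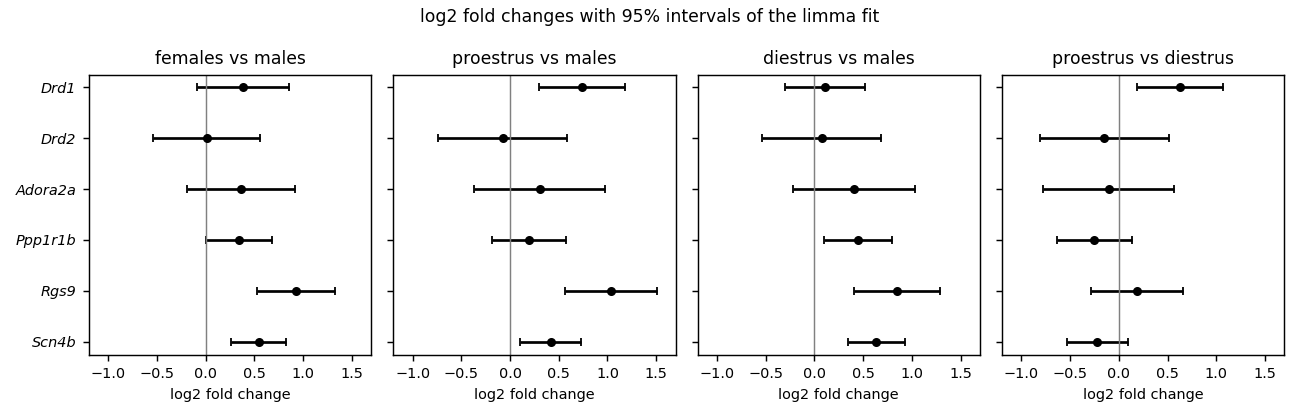
Log2 fold changes of the 6 genes in the 4 comparisons (horizontal axes; first group minus second), with bars for the 95% interval of the limma fit. The intervals of Rgs9 and Scn4b lie above 0 in all 3 comparisons with males and that of Drd1 in both comparisons of proestrus, although none passed the threshold after adjustment over all genes.

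All 6 genes varied more between libraries than most genes did. The ratio of the highest to the lowest library was 3.38 for Rgs9, 3.18 for Adora2a, 2.70 for Drd1, 2.45 for Drd2, 2.31 for Scn4b and 2.23 for Ppp1r1b. The SD of the log2 level over the 11 libraries ran from 0.33 for Ppp1r1b to 0.57 for Rgs9, where the median was 0.17 over the 11731 genes whose mean normalized count was 50 or more. In that list Rgs9 ranked above 97.3% of genes and Ppp1r1b above 87.4%. The receptors lay between them, Drd1 above 93.4%, Drd2 above 94.6% and Adora2a above 95.7%, as did Scn4b, above 89.6%.

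The spread was unevenly placed among the libraries. Proestrus replicate 5 was above the mean of the 11 libraries in 6 of 6 genes and was the highest library for Drd2, Adora2a and Rgs9, whereas it was the highest for 8.92% of all genes. Its mean standardized level, in SDs from the mean of the 11 libraries, was 1.41. Diestrus replicates 3 and 2 followed at 0.73 and 0.52, with 5 of 6 genes above the mean in each, Drd1 being the exception in both. Diestrus replicate 3 was the highest library for Ppp1r1b and Scn4b, and for 18.7% of all genes.

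The lowest mean levels were those of 3 males, at −0.93 in replicate 4, −0.90 in replicate 5 and −0.59 in replicate 3. Male replicate 4 was below the mean in 6 of 6 genes, and male replicate 5 was the lowest library for Adora2a, Ppp1r1b and Scn4b, against 8.07% of all genes. The genes did not rank the libraries alike in proestrus replicate 1, which was the highest of all libraries for Drd1 and the lowest of all for Drd2.

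**Figure D3:**
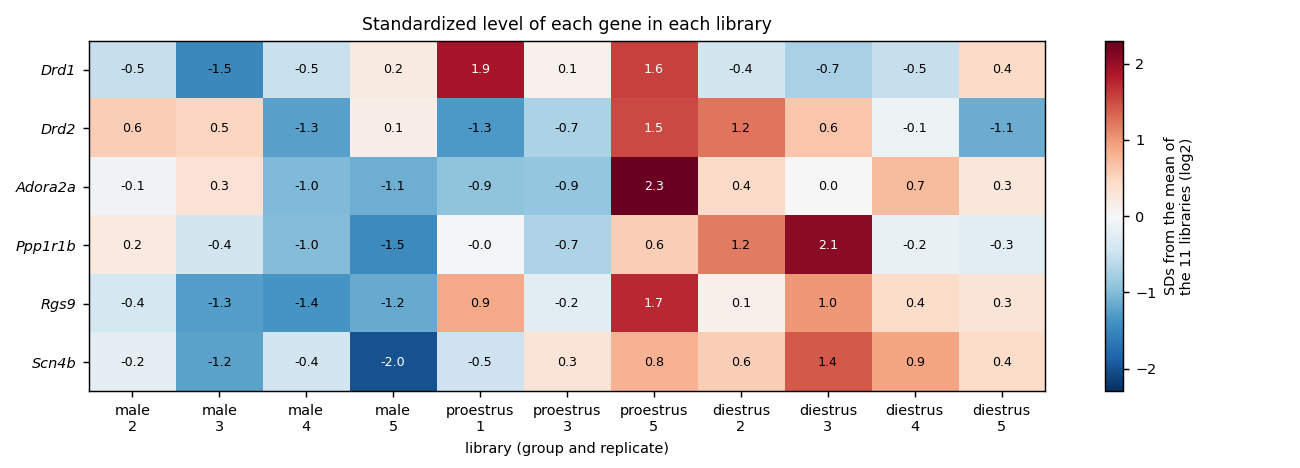
Level of each gene (rows) in each library (columns, by group and replicate) in SDs from that gene's mean over the 11 libraries, on the log2 scale; red is above and blue below the mean. Proestrus replicate 5 is above the mean in all 6 rows and male replicate 4 below it in all 6, while proestrus replicate 1 is at 1.9 for Drd1 and −1.3 for Drd2.

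Whether the genes moved together was examined over the 15 pairs of members and the 11 libraries. The correlation was positive in 13 of 15 pairs, with a median Pearson r of 0.53, where the median r of the members with all other genes of the table was 0.01. The pairs with and without Drd1 are given apart, a split chosen after the data were seen. The 10 pairs without it were all positive, from 0.21 to 0.74 with a median of 0.58. The 5 pairs with it ran from −0.20 to 0.60 with a median of 0.05. An unadjusted p below 0.05 was reached by 5 pairs and an adjusted p below 0.05 by 0 (two-sided permutation tests with 100000 resamples, Benjamini-Hochberg over the 15 pairs).

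The 2 highest correlations over all 11 libraries were between genes that do not encode receptors. Ppp1r1b and Scn4b had a Pearson r of 0.74 (permutation p = 0.00958, adjusted 0.0718) and a Spearman rho of 0.70 (permutation p = 0.0207, adjusted 0.104). Rgs9 and Scn4b had an r of 0.74 (permutation p = 0.00922, adjusted 0.0718) and a rho of 0.71 (permutation p = 0.0178, adjusted 0.104). Leaving out the 2 libraries farthest from the median of the first gene gave 0.65 and 0.79. Among all genes of the table, 0.327% had a higher r with Rgs9 than Scn4b did, and 0.538% had a higher r with Scn4b than Rgs9 did. For Ppp1r1b and Scn4b these shares were 3.15% seen from Ppp1r1b and 0.519% seen from Scn4b. Ppp1r1b and Rgs9 had an r of 0.67 (permutation p = 0.0248, adjusted 0.0929) and a rho of 0.72 (permutation p = 0.0166, adjusted 0.104), and r was 0.78 without the 2 farthest libraries.

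The 2 receptors of the indirect pathway, Drd2 and Adora2a, had an r of 0.67 (permutation p = 0.0186, adjusted 0.0929) and a rho of 0.59 (permutation p = 0.0611, adjusted 0.142). Without the 2 farthest libraries r was 0.54, and 1.85% of all genes had a higher r with Drd2 than Adora2a did, against 0.397% seen from Adora2a. Adora2a and Rgs9 had an r of 0.61 (permutation p = 0.0452, adjusted 0.132) and a rho of 0.51 (permutation p = 0.114, adjusted 0.214). That relation rested on male replicate 5 and proestrus replicate 5, since r was 0.17 without them.

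Drd1 and Drd2, the 2 dopamine receptors, had an r of −0.20 (permutation p = 0.556, adjusted 0.695) and a rho of −0.27 (permutation p = 0.419, adjusted 0.524). Without proestrus replicates 1 and 5, the 2 farthest libraries, r was −0.49. The ratio of Drd1 to Drd2 reads inside a library ran from 0.413 in male replicate 3 to 1.98 in proestrus replicate 1, a 4.80-fold range, the widest of the 15 pairs. The ratio of Ppp1r1b to Scn4b ran from 1.42 to 2.27, a 1.60-fold range, the narrowest. Drd1 and Rgs9 were the exception among the pairs with Drd1, with an r of 0.60 (permutation p = 0.0528, adjusted 0.132) and a rho of 0.35 (permutation p = 0.300, adjusted 0.450), and r was 0.16 without proestrus replicates 1 and 5.

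Differences between the groups enter the correlations over all libraries, so the deviations of each library from its group mean were also correlated. The 10 pairs without Drd1 were again all positive, from 0.30 to 0.72 with a median of 0.54, and 1 of the 5 pairs with Drd1 was positive. Without proestrus replicate 5, which was high for every member, 9 of the 10 pairs without Drd1 were positive, with a median of 0.52. The exception was Drd2 and Rgs9 at −0.02. Over the same 10 libraries Drd1 and Drd2 had an r of −0.62. The amount of striatal tissue in each punch was not tested, because the reference tables used here did not match the other striatal markers to the identifiers of the table. The labelled cortex was not checked by its markers for the same reason.

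**Figure D4:**
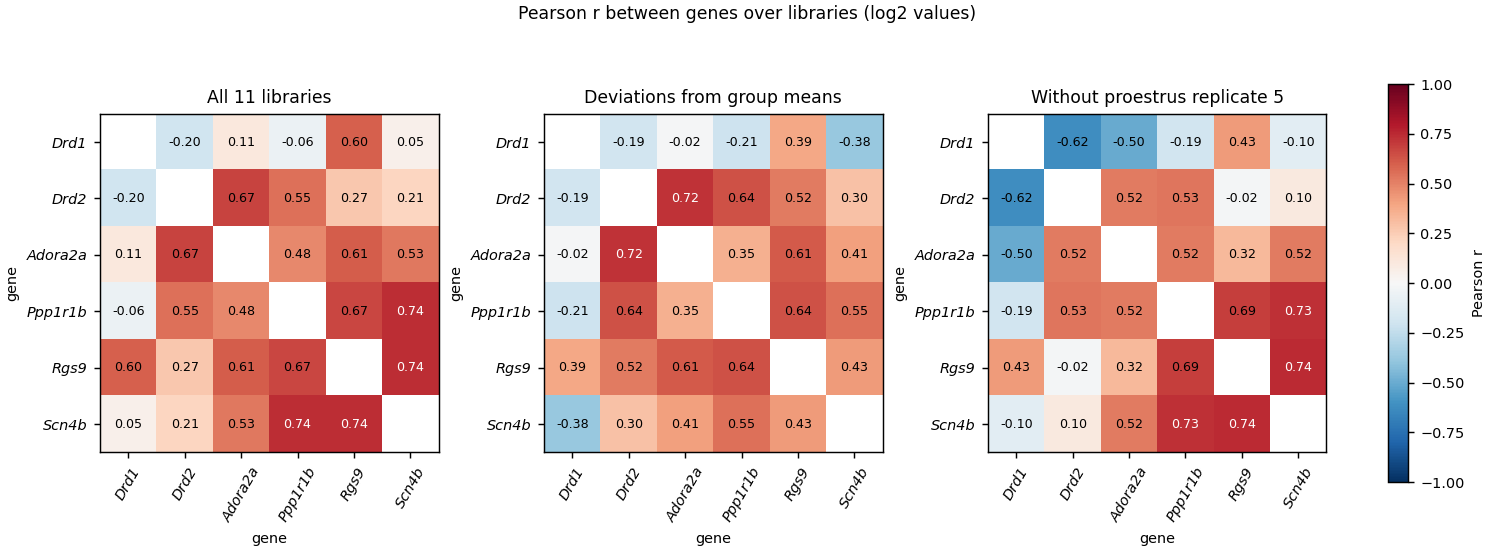
Pearson r between the log2 levels of each pair of genes (rows and columns) over all 11 libraries (left), over deviations from the group means (middle) and without proestrus replicate 5 (right). The block from Drd2 to Scn4b is positive in the left and middle panels, and the row of Drd1 is near or below 0 except for Rgs9.

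The leading component of the libraries, which took 24.8% of the variance of the 500 most variable genes, was set beside each member in 6 relations. All 3 proestrus libraries had scores above 0 and all 4 diestrus libraries below 0, and males spanned both. The component thus separates the stages, and the members were not kept out of the 500 genes, so these relations are not independent of the stage differences given above. Drd1 had an r of 0.69 with it (permutation p = 0.0159, adjusted 0.0954) and a rho of 0.70 (permutation p = 0.0197, adjusted 0.112), and r was 0.58 without the 2 farthest libraries. The other 5 genes had correlations below 0. Drd2 had an r of −0.55 (permutation p = 0.0830, adjusted 0.166) and a rho of −0.65 (permutation p = 0.0372, adjusted 0.112), and r was −0.41 without the 2 farthest. Ppp1r1b had an r of −0.62 (permutation p = 0.0413, adjusted 0.124) and a rho of −0.51 (permutation p = 0.115, adjusted 0.173), and r was −0.55 without the 2 farthest. Rgs9 had an r of −0.02 (permutation p = 0.958, adjusted 0.958) and a rho of −0.10 (permutation p = 0.776, adjusted 0.776). Adora2a had an r of −0.32 (permutation p = 0.354, adjusted 0.424) and a rho of −0.52 (permutation p = 0.108, adjusted 0.173). Scn4b had an r of −0.31 (permutation p = 0.347, adjusted 0.424) and a rho of −0.45 (permutation p = 0.165, adjusted 0.198). Without the 2 farthest libraries r was 0.02 for Rgs9, −0.26 for Adora2a and −0.08 for Scn4b. The part of this component in the levels of the 6 genes was not tested. With the mean standardized pattern of the 6 genes, to which each contributes, r was 0.92 for Rgs9, 0.80 for Adora2a and Ppp1r1b, 0.77 for Scn4b, 0.59 for Drd2 and 0.35 for Drd1.

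Among the 11725 other genes whose mean normalized count was 50 or more, the patterns most like that mean were those of ENSRNOG00000027645, with an r of 0.92 over the 11 libraries, and ENSRNOG00000028908, with an r of 0.87. The tables used here pair neither identifier with a symbol, and further identifiers are not given for that reason.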

How the data were processed

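Gene expression was measured by poly(A) RNA sequencing of 11 mPFC punches. Per the submitters' processing notes, the authors used Trimmomatic 0.32, TopHat2 2.0.11 and Bowtie2 2.1.0, the Rnor_5.0 assembly, HTSeq 0.6.1p1, edgeR 3.6.7 and DESeq2 1.4.5. The libraries were unstranded, so reads of overlapping or antisense genes cannot be told apart, and uniquely mapped reads were counted. The authors set a read minimum from spike-in RNA and left out 1 proestrus library, which was not analysed here. The deposited signal was the count of reads per gene divided by the DESeq2 size factor of the library, and whole reads were recovered from 100% of the values within a tolerance of 0.01. A second deposited table, scaled with edgeR, was not used.

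Samples were grouped by the stage and sex in their labels. Proestrus, diestrus and males were compared in 1 fit of limma 3.58.1 (R 4.3.3, trended prior variance) to log2(normalized count + 1), and females with males in a fit on sex alone, each over 15607 genes with Benjamini-Hochberg adjustment at 0.05. The log2 scale understates the change of low genes. Alternatives were pseudocounts of 0.5 and 5, a mean of at least 50, TMM and quantile scaling, edgeR 4.0.16 and DESeq2 1.42.0 on the recovered reads, the groups compared alone, a replicate block and each library left out. Correlations used the same log2 values.

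The genes named were the 6 members and those with the most similar pattern over the libraries. The members, lists and tests were chosen with earlier results of these data known. Lists of 139 symbols (striatal markers, other dopamine receptors, the cAMP signaling chain, markers of other cell types) gave no result, because 0 of the 47357 genes of the reference table carried an Ensembl identifier.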

Additional observations from a re-analysis of the deposited data

Results flagged for a closer look

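Adora2a in proestrus replicate 5 stood far from the rest of the 7 females, with a normalized count of 305 where the other 6 females lay between 102 and 180. Its gap to the nearest female, relative to the whole range, exceeded Dixon's 95% critical value. Of the 18 sets of libraries tested over the 6 genes, this was the only one past its critical value, and chance gives about 1 in 20.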

How the results depend on the processing

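Of 474 refitted log2 fold changes of the 6 genes under the alternatives, 444 kept their direction and their side of the threshold, 8 moved past it and 22 changed sign, and 16 of 24 fold changes never changed sign. With DESeq2, 1 member was called between proestrus and diestrus, 1 between proestrus and males, 2 between diestrus and males and 2 between females and males, against 0 in limma; the cause was not tested. Leaving out each library in turn gave 0 to 1 called members between proestrus and diestrus, 0 to 1 between proestrus and males, and 0 in both other comparisons. The calls came without diestrus replicate 5 (Drd1; 1774 of all genes called) and without proestrus replicate 3 (Rgs9; 8 called). The count of all genes called ran from 0 to 1774 between the stages, from 2 to 26 between proestrus and males, from 1 to 88 between diestrus and males and from 1 to 24 between the sexes.

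Between proestrus and diestrus, the log2 difference of Adora2a was 0.10 with edgeR, 0.10 with DESeq2 and 0.20 with the replicate block, and that of Drd2 was 0.13 with the block, which also gave 0.20 for Drd2 between proestrus and males. Leaving out each library gave −0.53 to 0.11 for Drd2, −0.62 to 0.16 for Adora2a and −0.081 to 0.48 for Rgs9 between proestrus and diestrus. It gave −0.46 to 0.18 for Drd2 and −0.22 to 0.57 for Adora2a between proestrus and males, −0.017 to 0.22 for Drd1 and −0.11 to 0.27 for Drd2 between diestrus and males, and −0.18 to 0.11 for Drd2 between females and males. The sign of Drd2 changed without diestrus replicate 2 or proestrus replicate 1 between the stages, without male replicates 2 or 3 or proestrus replicates 1 or 3 between proestrus and males, and without diestrus replicate 2 or male replicate 4 between diestrus and males. That of Adora2a changed without proestrus replicates 1 or 3 between the stages and without proestrus replicate 5 against males, that of Rgs9 without proestrus replicate 5 and that of Drd1 without male replicate 3.

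The median correlation over the 15 pairs was 0.41 on deviations from the group means and 0.41 to 0.60 with each library left out. It was 0.58 for the 5 members other than Drd1. The median log2 difference of the 6 members between proestrus and diestrus ran from −0.34 to 0.14 with each library left out. These 2 alternatives were chosen after the data were seen.

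What the replicate numbers mark is not given in the sources used here. Deviations of same-numbered diestrus and male libraries correlated at 0.05 to 0.59, above 0 in 4 of 4 pairs, against −0.67 to 0.58 for libraries with different numbers, above 0 in 4 of 12 pairs. The same-numbered pairs with proestrus correlated at 0.01 and 0.14 for diestrus and at 0.12 and 0.16 for males, so that 8 of 8 same-numbered pairs were above 0. These values leaned toward a pairing, but 2 of the 8 pairs, 1 of them between diestrus and males, were below the minimum of 0.1 set for every pair, and 2 of 4 diestrus libraries correlated best with the male of their own number, so no pairing was assumed. With the replicate block, 0 members were called in all 4 comparisons, as without it, and all genes called went from 395 to 517 between the stages, from 13 to 3 between proestrus and males, from 20 to 47 between diestrus and males and from 21 to 18 between the sexes. Counting error alone was 7.68% to 9.90% of a level for the 3 receptors and 6.31% to 8.88% for Rgs9, against 1.81% to 3.00% for Ppp1r1b and Scn4b.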
